A study of Mus musculus with 4 samples.

Results

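The G-protein-coupled serotonin receptor genes Htr1a, Htr1b, Htr1d, Htr1f, Htr2a, Htr2b, Htr4, Htr5a, Htr5b and Htr7 were taken by symbol from RNA sequencing of Ret-EGFP-positive cells of the mouse dorsal root ganglion. They are 10 of the 41388 genes listed, and all 10 had counts in every library. Serotonin released by platelets, mast cells and descending brainstem fibres reaches sensory neurons, and these membrane receptors pass the signal to G proteins. Receptors of the Htr1 subfamily and Htr5a couple to Gi/o, which lowers cyclic AMP. Htr2 receptors couple to Gq, which activates phospholipase C, and Htr4 and Htr7 couple to Gs, which raises cyclic AMP. In sensory ganglia, Htr1b, Htr1d and Htr1f are known for presynaptic inhibition and as targets of migraine drugs, whereas Htr2a, Htr4 and Htr7 are known for sensitising nociceptors.

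There were 4 libraries, each from a single C57BL/6 animal whose ganglia of lower thoracic to upper sacral levels were pooled and sorted by flow cytometry for EGFP. Female A and male A came from pools described as from a P2 mouse, with 40 ganglia for the female and 20 for the male. Male B and male C came from pools of 20 ganglia described as from an embryo. The stage label was postnatal day 2 for every library, so the descriptions of the embryo pair go against their stage. All libraries carried the Ret-EGFP reporter and none came from animals without it. The genotype label reads as a transgene, whereas the design text describes heterozygotes with EGFP knocked into the Ret locus. The series was set up to hold male and female cells, and its pool descriptions give another division, into the P2-mouse pair and the embryo pair. Age, litter and handling cannot be told apart in that division, and the only female lies on its P2-mouse side.

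Gene counts summed to between 17388493 and 28066448 per library. Ret itself had 233 and 232 CPM in female A and male A, against 272 CPM in male B and 240 CPM in male C. CPM is a gene's count scaled to a common library total. Genes are given as called where they passed the test between the pairs that is set out with the receptor results, and gene coordinates are those of the files, on GRCm38. The 9 pan-sensory neuron markers summed to 7763 and 7440 CPM in the P2-mouse pair, against 12691 and 11883 CPM in the embryo pair, and their most abundant gene was Tubb3. Of these 9 markers, 2 rose and 6 fell in the P2-mouse pair (median log2 fold change -0.54). The 7 peptidergic nociceptor markers, led by Calca, summed to 2575 and 2584 CPM against 5467 and 5219 CPM in the embryo pair. The 12 Schwann cell markers, led by Pmp22, ran the other way, at 4886 and 7802 CPM in the P2-mouse pair against 2962 and 2978 CPM, and 10 of them were called higher. So did the 8 fibroblast markers, led by Col1a2, at 1376 and 1516 CPM against 296 and 319 CPM, with 5 of 7 tested called higher. Over all genes tested between the pairs, 22.3% were called higher and 20.0% lower. Itch neuron markers, led by Mrgpra3, summed to 65.4 and 76.3 CPM in the P2-mouse pair against 129 and 165 CPM, with 1 of 6 tested called higher and 4 lower. Of the 8 myelinated mechanoreceptor and proprioceptor markers, 5 were called lower and 0 higher (median -1.22, against -1.07 for the peptidergic list). Of the 6 nonpeptidergic nociceptor markers, 3 were called lower and 1 higher (median -0.45). The 3 C-fibre low-threshold mechanoreceptor markers had 2 called lower and 1 higher (median -0.40). Mast cell markers, led by Cpa3, were low and uneven inside both pairs. They summed to 2.46 CPM in female A and 12.9 CPM in male A, against 7.94 CPM in male B and 2.81 CPM in male C. None of them was called. Macrophage markers summed to at most 4.60 CPM and sympathetic neuron markers to at most 1.25 CPM in any library, with C1qa, Adgre1, Dbh, Phox2a, Npy and Hand2 at 0 in at least 1 library.

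Upstream sequences are given for 3 Gi/o-coupled genes that did unlike things between the pairs, as described below: Htr1d and Htr1f were lower in the P2-mouse pair, and Htr1b was not. Each is the 250 bases before the RefSeq start on GRCm38.p6, read 5′ to 3′ on the gene's strand, with motif matches in capitals. The windows are chr4:136423274-136423523 on the plus strand for Htr1d, chr16:65105785-65106034 on the minus strand for Htr1f and chr9:81633833-81634082 on the minus strand for Htr1b.
Htr1d: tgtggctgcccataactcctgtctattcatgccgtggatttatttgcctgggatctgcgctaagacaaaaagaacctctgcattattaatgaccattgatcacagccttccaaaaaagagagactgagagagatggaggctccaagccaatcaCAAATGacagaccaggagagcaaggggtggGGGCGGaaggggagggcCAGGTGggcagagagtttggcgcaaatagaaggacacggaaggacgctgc
Htr1f: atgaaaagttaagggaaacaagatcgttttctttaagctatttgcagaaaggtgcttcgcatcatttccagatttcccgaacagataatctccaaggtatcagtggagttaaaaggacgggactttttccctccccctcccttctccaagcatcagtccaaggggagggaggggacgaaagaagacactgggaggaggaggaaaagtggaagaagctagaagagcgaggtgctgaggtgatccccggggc
Htr1b: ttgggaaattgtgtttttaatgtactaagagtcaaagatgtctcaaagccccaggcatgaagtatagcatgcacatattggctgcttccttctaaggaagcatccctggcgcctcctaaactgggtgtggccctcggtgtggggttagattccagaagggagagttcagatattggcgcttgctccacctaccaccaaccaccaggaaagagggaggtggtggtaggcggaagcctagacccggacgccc
Both strands were searched for TATAAA (the TATA box), GGGCGG (the GC box), TGTGGT (a Runt-factor motif), TAATTA (a homeodomain motif), TGACGTCA (the cyclic AMP response element) and CANNTG (the E-box). The Htr1d window held 1 GGGCGG and 2 CANNTG matches, which do not overlap, and the windows of Htr1f and Htr1b held none of the 6 motifs. Of 32536 windows of the same length, 33.0% held GGGCGG and 66.2% held CANNTG, so the matches of Htr1d were common ones. The others were held by 12.3% of windows for TATAAA, 14.0% for TGTGGT, 4.8% for TAATTA and 1.6% for TGACGTCA.

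Levels between genes were compared as RPKM, the CPM per kilobase of exon. By mean RPKM over the 4 libraries, Htr1d stood first at 4.60 (range 2.20 to 7.84) and Htr1b next at 4.46 (3.26 to 5.54). Htr5b followed at 2.56 RPKM (0.832 to 4.79) and Htr7 at 2.41 RPKM (1.72 to 3.30). Htr1d and Htr1b lay at the 72.1 and 71.7 percentiles of mean RPKM among genes with a count, so that even the leading receptors were of moderate abundance. Htr2a came next at 1.18 RPKM (0.638 to 1.72), then Htr4 at 1.12 (0.928 to 1.62), Htr5a at 0.798 (0.581 to 1.16) and Htr1a at 0.633 (0.425 to 0.815). At the end were Htr1f, at 0.574 RPKM (0.213 to 0.896), and Htr2b, at 0.336 RPKM (0.135 to 0.621) and the 40.3 percentile. The ranges of neighbours in this order overlapped, except that Htr7 exceeded Htr2a in 4 of 4 libraries. The order was not the same in the pairs: Htr5b had rank 6 in the P2-mouse pair and rank 2 in the embryo pair, while Htr2b had rank 10 in both.

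**Figure D1:**
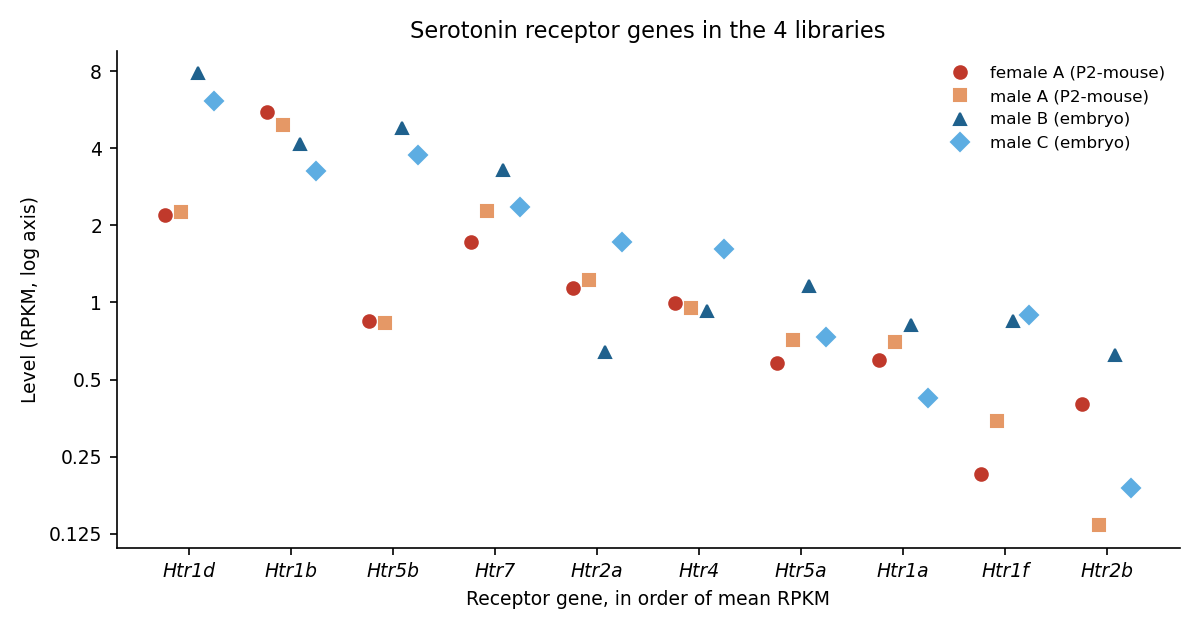
Level of each receptor gene in every library, in RPKM on a log axis, with the P2-mouse pair left of the embryo pair. Htr1d and Htr5b are separated between the pairs, with Htr5b at 0.832 RPKM at its lowest and 4.79 RPKM at its highest, whereas the points of Htr1a, Htr2a, Htr2b and Htr4 interleave.

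Between the pairs, 3 of the 10 receptor genes passed the test (edgeR quasi-likelihood, Benjamini-Hochberg adjusted p under 0.05 over all 15568 genes tested), and all 3 (Htr1d, Htr5b and Htr1f) were lower in the P2-mouse pair. No receptor gene was called higher. Of all genes tested, 20.0% were called lower, 22.3% higher and 42.3% in either direction, so the share of receptor genes called was near the background. An unadjusted p under 0.05 was reached by 4 receptor genes and by 50.8% of all genes tested. The fold changes of 9 of the 10 lay below 0, with a median log2 fold change of -0.63, against 0.02 over all genes tested. Among these, Htr1a (-0.05, SE 0.40), Htr2a (-0.12, SE 0.45) and Htr2b (-0.63, SE 0.75) had values smaller than their SEs. Their signs changed under some alternatives. CPM values of the pairs did not overlap for 6 receptor genes (Htr1b, Htr1d, Htr1f, Htr5a, Htr5b and Htr7), and for 73.3% of all genes tested. In these bulk libraries, fewer cells of a type and less receptor RNA per cell cannot be told apart.

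**Figure D2:**
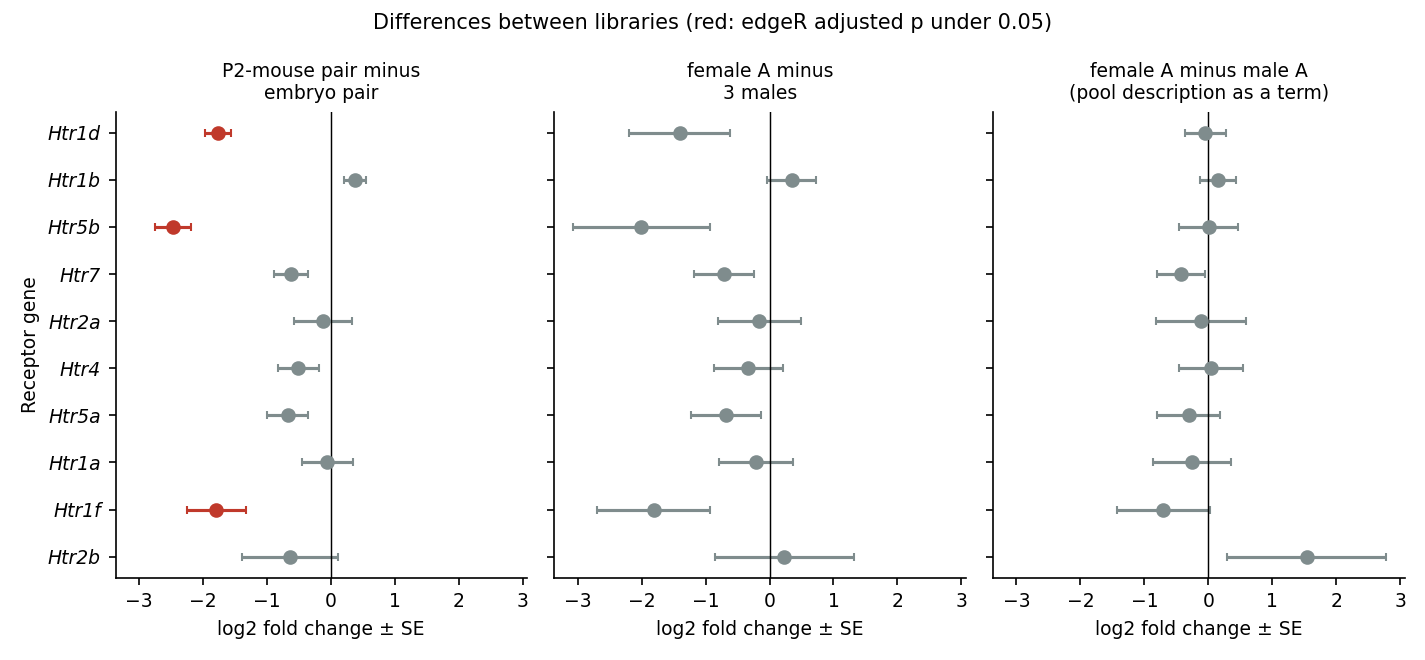
Log2 fold change of each receptor gene with its standard error, for the P2-mouse pair minus the embryo pair, for female A minus the 3 males, and for female A minus male A in the fit that holds a term for the pools. The 3 called genes, Htr5b at -2.46, Htr1f at -1.78 and Htr1d at -1.76, lie furthest below 0 in the comparison of the pairs, and no receptor gene was called between the sexes.

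Htr1d encodes a Gi/o-coupled receptor known in peptidergic nociceptors, where it lies on the vesicles that hold neuropeptides. The gene (ENSMUSG00000070687, plus strand of chr4:136423524-136444398, 4 separate exon blocks) had 7.05 CPM in female A and 7.19 CPM in male A, from 198 and 125 counts, against 25.1 CPM in male B and 19.5 CPM in male C, from 569 and 486 counts. Both P2-mouse libraries were far below both embryo libraries, and the P2-mouse values were within counting error of each other. This was a log2 fold change of -1.76 (SE 0.20, edgeR adjusted p = 0.000455), which is 3.39-fold lower. Htr1d passed under all 14 alternatives run, with log2 fold changes between -1.98 and -1.36.

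Htr1f encodes the Gi/o-coupled receptor bound by lasmiditan, a migraine drug. The gene (ENSMUSG00000050783, minus strand of chr16:64924729-65105784, 3 exon blocks) had 0.534 CPM in female A and 0.863 CPM in male A, 15 counts each, against 2.12 CPM in male B and 2.25 CPM in male C, from 48 and 56 counts. The pairs did not overlap, although all 4 levels were low. The log2 fold change was -1.78 (SE 0.46, edgeR adjusted p = 0.0170), 3.44-fold lower. The call was lost with sex as a term (log2 fold change -1.44, edgeR adjusted p = 0.140), without female A (-1.43, adjusted p = 0.126), without male A (-2.14, adjusted p = 0.0536) and with sex as a term plus offsets for GC content and length (-2.02, adjusted p = 0.101). Over all 13 alternatives its log2 fold change ran from -2.30 to -1.39, and 9 of them kept the call. Sex as a term and leaving out female A both set male A against male B and male C, so they are not separate alternatives.

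Htr1b encodes the Gi/o-coupled receptor that, with Htr1d, is bound by the triptans, and it acts at presynaptic terminals. The gene (ENSMUSG00000049511, minus strand of chr9:81628291-81633828, 2 exon blocks) had 26.2 CPM in female A and 23.2 CPM in male A, against 19.6 CPM in male B and 15.4 CPM in male C. Both P2-mouse libraries were above both embryo libraries, and it was the only receptor gene whose fold change lay above 0 in this fit, at 0.39 on the log2 scale (SE 0.17, edgeR adjusted p = 0.113). Under the offsets for GC content and length it was 0.04 (edgeR adjusted p = 0.878), with sex as a term as well -0.06, and without male C 0.18. It was called higher without male B (0.56, edgeR adjusted p = 0.0209) and on scaling to the neuron markers (0.79, adjusted p = 0.00826), and its adjusted p was as high as 0.899 among its 14 alternatives. Of its 4724 exon bases, 852 are overlapped by the opposite-strand gene D430036J16Rik, which had 38.8 and 32.7 CPM in the P2-mouse pair against 23.8 and 20.8 CPM and was called higher (0.57, SE 0.15, edgeR adjusted p = 0.0195). The strand setting of the counting was not given in the sources used here, so reads from that stretch cannot be assigned to either gene with certainty.

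Htr1a encodes a Gi/o-coupled receptor known as an autoreceptor of brainstem serotonin neurons. The gene (ENSMUSG00000021721, plus strand of chr13:105443693-105448133, 1 exon block) had 2.64 and 3.11 CPM in female A and male A, against 3.62 CPM in male B and 1.89 CPM in male C. The embryo libraries enclosed the P2-mouse ones and differed from each other 1.92-fold, beyond the 95% Poisson intervals of their counts. Its log2 fold change was -0.05 (SE 0.40, edgeR adjusted p = 0.925).

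Htr5b, which is functional in rodents and a pseudogene in humans, showed the greatest fold change of the 10. The gene (ENSMUSG00000050534, minus strand of chr1:121509842-121528465, 2 exon blocks) had 1.64 CPM in female A and 1.61 CPM in male A, from 46 and 28 counts, against 9.26 CPM in male B and 7.27 CPM in male C, from 210 and 181 counts. The libraries of each pair had overlapping counting intervals, and the pairs lay far apart. The log2 fold change was -2.46 (SE 0.28, edgeR adjusted p = 0.000504), 5.49-fold lower. Its values under 13 alternatives lay between -2.66 and -1.92, and 12 of them kept the call. The exception was sex as a term plus offsets for GC content and length (-1.92, edgeR adjusted p = 0.0549).

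Its relative Htr5a encodes a Gi/o-coupled receptor. The gene (ENSMUSG00000039106, plus strand of chr5:27841947-27855086, 2 exon blocks) had 3.24 and 3.97 CPM in the P2-mouse pair, against 6.48 CPM in male B and 4.10 CPM in male C. Male C lay close to male A and male B stood apart from both. Its fold change was -0.67 on the log2 scale (SE 0.32, edgeR adjusted p = 0.129). It passed with the GC and length offsets (-1.06, edgeR adjusted p = 0.0362) and without male C (-1.01, adjusted p = 0.0235), and reached an adjusted p of 0.523 among its 13 alternatives.

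The Gq-coupled Htr2a, known for serotonin-evoked hyperalgesia, differed inside the embryo pair beyond counting error. The gene (ENSMUSG00000034997, plus strand of chr14:74640840-74706859, 3 exon blocks) had 3.38 and 3.62 CPM in female A and male A, against 1.90 CPM in male B and 5.10 CPM in male C. The 43 counts of male B (95% Poisson interval 31.1 to 57.9) and the 127 counts of male C (106 to 151) lay on either side of the P2-mouse pair. The mean difference was small, with a log2 fold change of -0.12 (SE 0.45, edgeR adjusted p = 0.855). The satellite glia sum was 498 CPM in male B and 847 CPM in male C, against 831 and 880 CPM in the P2-mouse pair. Other marker sums differed between male B and male C in either direction, such as itch neuron (129 and 165 CPM) and mast cell (7.94 and 2.81 CPM). Whether any of these bears on Htr2a was not tested.

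Htr2b, the other Gq-coupled member, was the least abundant receptor gene. It (ENSMUSG00000026228, minus strand of chr1:86099026-86111970, 4 exon blocks) had 0.855 CPM in female A and 0.288 CPM in male A, from 24 and 5 counts, against 1.32 CPM in male B and 0.402 CPM in male C, from 30 and 10 counts. Each pair held a higher and a lower library, about 3-fold apart (ratios of 2.97 for female A over male A and 3.30 for male B over male C), so the pairs overlapped. The log2 fold change was -0.63 (SE 0.75, edgeR adjusted p = 0.533). The counting intervals of male B and male C did not overlap on the CPM scale, so the spread between these libraries exceeded counting error. Of its exon bases, 11.8% are overlapped by the opposite-strand gene Psmd1, a proteasome subunit with 465 and 441 CPM in the P2-mouse pair against 329 and 318 CPM, and reads from that stretch cannot be assigned with certainty either.

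Among the Gs-coupled receptors, Htr7 is known in mouse itch neurons, where it couples to the channel Trpa1. The gene (ENSMUSG00000024798, minus strand of chr19:35958734-36057507, 6 exon blocks) had 5.84 CPM in female A and 7.76 CPM in male A, against 11.2 CPM in male B and 7.99 CPM in male C. The pairs did not overlap, but male A and male C were almost level. Its log2 fold change was -0.62 (SE 0.26, edgeR adjusted p = 0.0970). It was called lower without male C (-0.89, edgeR adjusted p = 0.0163) and with no filter on low counts (-0.63, adjusted p = 0.0420), and its adjusted p reached 0.598 among 14 alternatives.

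Htr4, the other Gs-coupled member, is known from enteric and brain neurons. The gene (ENSMUSG00000026322, plus strand of chr18:62324204-62467802, 7 exon blocks) had 4.63 and 4.43 CPM in the P2-mouse pair, against 4.32 CPM in male B and 7.55 CPM in male C. Male C alone was high, and the other 3 libraries lay between 4.32 and 4.63 CPM. The log2 fold change was -0.51 (SE 0.32, edgeR adjusted p = 0.235), and without male B it was -0.86 (adjusted p = 0.0285; the range over 14 alternatives was 0.0285 to 0.847).

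Inside the pairs, the spread was compared with counting error. The 95% Poisson intervals of female A and male A, on the CPM scale, overlapped for all 10 receptor genes, although male A had the fewest gene counts and so wide intervals. Those of male B and male C overlapped for Htr1f and Htr5b only. Male B was above male C for Htr1a, Htr1b, Htr1d, Htr2b, Htr5a, Htr5b and Htr7, and below it for Htr1f, Htr2a and Htr4.

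Ratios within a library do not depend on how the libraries were scaled, and they were computed for related receptor genes, with no test. The RPKM of Htr1d over that of Htr1b was 0.398 in female A and 0.457 in male A, against 1.89 in male B and 1.87 in male C. Htr1b was thus the more abundant of the pair in both P2-mouse libraries, and Htr1d in both embryo libraries. Reads from the stretch of Htr1b overlapped by D430036J16Rik may enter this ratio. The RPKM ratio of Htr5b to Htr5a was 1.46 and 1.17 in the P2-mouse pair, against 4.12 and 5.11 in the embryo pair. By contrast, the ratio of Htr7 to Htr4 was 1.73 and 2.40 in the P2-mouse pair and lay inside the 3.55 and 1.45 of the embryo pair. The ratio of Htr2a to Htr2b overlapped as well, at 2.84 and 9.04 in the P2-mouse pair against 1.03 and 9.11. For the channel subunits Htr3a over Htr3b it was 0.427 and 0.400 in the P2-mouse pair, against 0.669 and 1.01 in the embryo pair. Such ratios show unequal change and do not say which gene of a pair moved.

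**Figure D3:**
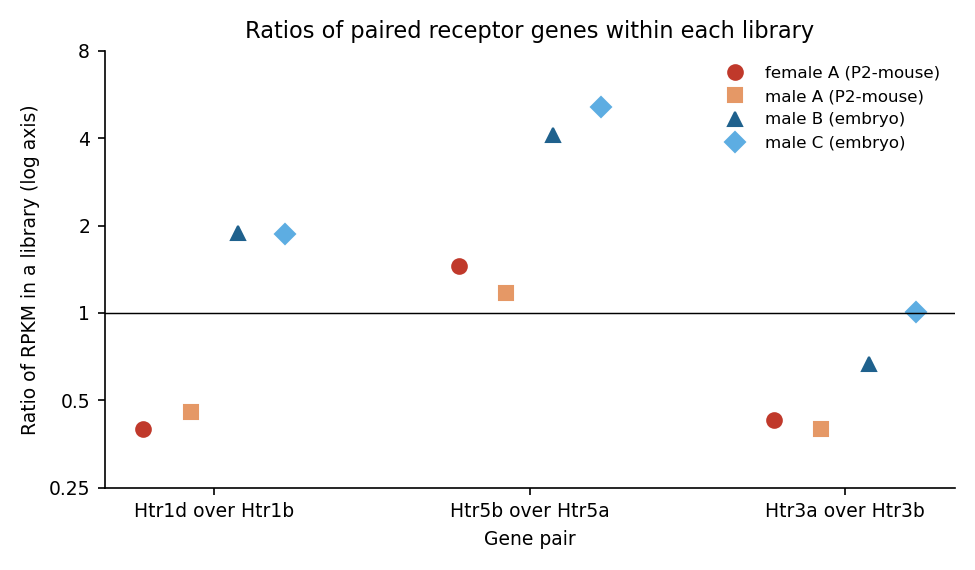
Within-library RPKM ratios of Htr1d to Htr1b, Htr5b to Htr5a and Htr3a to Htr3b, on a log axis, with the P2-mouse pair left of the embryo pair. The ratio of Htr1d to Htr1b is below 1 in both P2-mouse libraries (0.398 and 0.457) and above 1 in both embryo libraries (1.89 and 1.87).

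The make-up of the receptor set is given as shares of the summed RPKM. Summed over the 10 genes, the level was 14.2 RPKM in female A and 14.3 RPKM in male A, against 25.1 RPKM in male B and 21.04 RPKM in male C. Htr1b gave 38.9% and 34.3% of that sum in the P2-mouse pair, against 16.5% and 15.5% in the embryo pair. Htr1d gave 15.5% and 15.7% in the P2-mouse pair, against 31.3% and 29.0%. The Htr1 subfamily together stayed the largest class in every library, at 60.1% and 57.2% against 54.4% and 50.7%. The Htr5 subfamily gave 10.0% and 10.8% in the P2-mouse pair, against 23.7% and 21.3% in the embryo pair, where it exceeded the Gs-coupled Htr4 and Htr7 (16.8% and 18.9%). The Gq-coupled Htr2a and Htr2b gave at most 10.8% in any library.

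**Figure D4:**
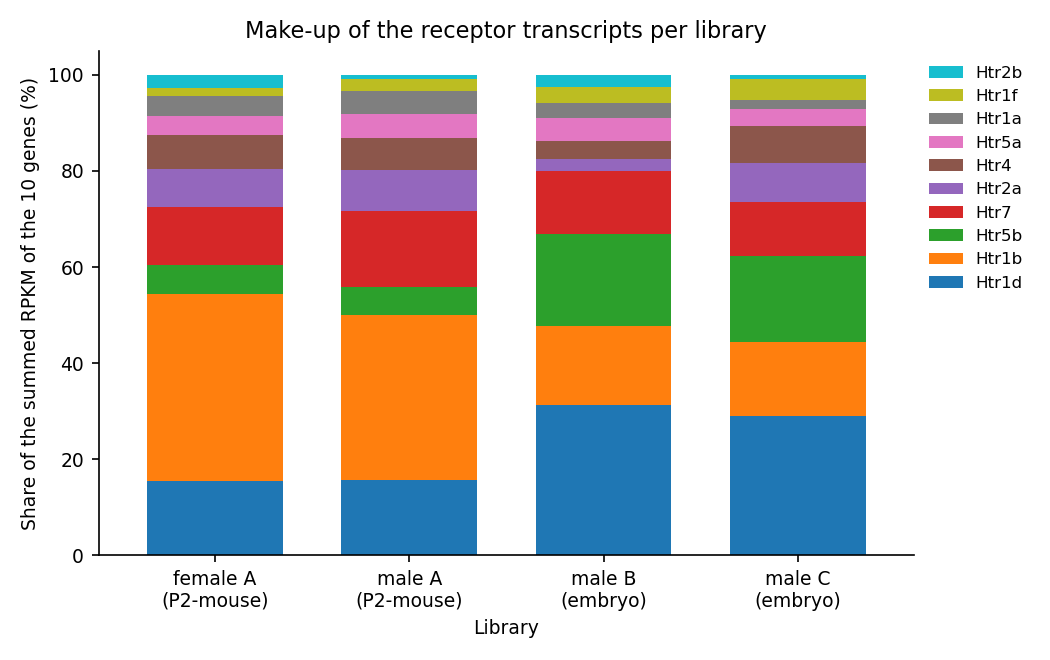
Share of each receptor gene in the summed RPKM of the 10 genes, by library, in percent. Htr1b holds the largest share in female A and male A (38.9% and 34.3%), and Htr1d in male B and male C (31.3% and 29.0%).

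Pan-sensory neuron, Schwann cell and fibroblast markers moved with the same division of the libraries. Not all lists did: the satellite glia list had 2 genes called higher and 2 lower. Endothelial and mural markers summed to 103 and 101 CPM in the P2-mouse pair, against 100 and 92.6 CPM. The calls of Htr1d, Htr5b and Htr1f held on scaling to the 9 pan-sensory neuron markers, chosen after the data were seen, at log2 fold changes of -1.36, -2.05 and -1.39. That scaling moved the median log2 fold change of all genes to 0.41. GC content moved with the division too: across 15474 genes, which are not independent, the fold change and the transcript's GC content had a Spearman correlation of -0.444. The longest transcripts of Htr1d, Htr5b and Htr1f hold 49.6%, 55.0% and 39.4% GC, and with offsets for GC content and length all 3 were still called, at -1.60, -1.93 and -2.30. The part of the Schwann cell and fibroblast RNA in these differences was not tested.

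Between the sexes, no receptor gene passed the test, with adjusted p of 0.951 or more (edgeR quasi-likelihood test, female A against male A, male B and male C). None of the 16708 genes tested was called (0.00%), and 129 of them (0.772%) but no receptor gene had an unadjusted p under 0.05. DESeq2 and limma-voom called no receptor gene either. With 1 female, the test assumes that female cells vary like those of the males, and both pool descriptions enter the spread among the males. The median log2 fold change of the 10 was -0.50, against 0.00 over all genes.

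Female A lay below all 3 males for Htr1d, Htr1f, Htr5a and Htr7, above them for Htr1b and inside their range for Htr1a, Htr2a, Htr2b, Htr4 and Htr5b. For comparison, the female lay outside the male range for 45.1% of all genes tested. The values furthest from 0 were those of Htr5b, at -2.001 on the log2 scale (SE 1.07), Htr1f, at -1.81 (SE 0.89), and Htr1d, at -1.40 (SE 0.79). Within the P2-mouse description only 1 library of each sex can be compared, and the single residual degree of freedom is male B against male C, so the SEs carry the spread of the embryo pair. There, female A minus male A gave 0.01 for Htr5b (SE 0.46), -0.70 for Htr1f (SE 0.73) and -0.05 for Htr1d (SE 0.33). These are differences between 2 libraries with no replicate of either. Htr2b had 1.54 there (SE 1.24), from 24 counts in female A and 5 in male A, and the other 6 receptor genes lay between -0.43 (Htr7, SE 0.38) and 0.15 (Htr1b, SE 0.28). The embryo description holds males only and gives no value. Without male A, Htr1d (-1.78, edgeR adjusted p = 0.0116) and Htr5b (-2.45, adjusted p = 0.0109) were called lower in the female, as 22.1% of all genes were called in either direction, but in that setting the female's sex and its pool description cannot be told apart. Under the other alternatives the adjusted p of Htr1d and Htr5b reached 1.

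The remaining serotonin receptor genes differed in kind. Htr3a and Htr3b encode subunits of the serotonin-gated cation channel, with Htr3a able to form channels alone. Htr3a had 17.8 CPM in female A and 14.3 CPM in male A, against 31.2 CPM in male B and 38.7 CPM in male C, and was called lower (-1.23, SE 0.18, edgeR adjusted p = 0.00126). Under the offsets for GC content and length it was -0.77 and still called, and with sex as a term as well the call was lost (-0.92, edgeR adjusted p = 0.0678, the highest of its alternatives). Htr3b had 48.3 and 41.5 CPM in the P2-mouse pair, against 54.0 and 44.5 CPM, and was not called (-0.25, SE 0.15, edgeR adjusted p = 0.212), but it was called lower without male C (-0.42, adjusted p = 0.0405, the lowest of its alternatives, against a highest of 0.617). Htr2c and Htr6 had 0 counts in every library, which allows up to 0.107 to 0.173 CPM (3 counts of the library total, covering counting error only).

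Around the receptors, 60 genes in 5 lists of serotonin handling, G-protein coupling and receptor regulation were examined. Of these, 53 were tested, 24 were called (in the P2-mouse pair, 12 higher and 12 lower) and 29 were not. Their median log2 fold change was -0.07, and the shares called in each direction were close to those of all genes. No gene of these lists was called between the sexes. Of the 24 called genes, 13 kept the call and direction with sex as a term (Gnai1, Gnai2, Gnai3, Gnaz, Adcy5, Prkaca, Gna11, Itpr3, Prkca, Grk2, S100a10, Snx27 and Dlg4). With the GC and length offsets 9 kept it (Gnai3, Gnas, Adcy5, Prkaca, Gna14, Plcb2, Itpr3, Grk2 and Dlg4), and with both only Gnai3, Itpr3 and Dlg4. On scaling to the neuron markers 14 kept it, without male A 12 and without female A 13.

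Of the 11 genes of serotonin handling, 9 were tested and none passed the test. Maoa, the main enzyme of serotonin breakdown, had 187 CPM in both P2-mouse libraries, against 157 and 142 CPM in the embryo pair (0.20, edgeR adjusted p = 0.117). Its direction depended on the setting, as it was called lower with the GC and length offsets (-0.40, edgeR adjusted p = 0.0120) and higher on scaling to the neuron markers (0.61, adjusted p = 0.00185), and its adjusted p reached 0.514 among the alternatives. Slc18a2, the vesicular monoamine transporter, had 38.6 CPM in both P2-mouse libraries, against 42.1 and 29.5 CPM (-0.0032, adjusted p = 0.991).

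In the Gi/o list, through which the Htr1 receptors and Htr5a act, 6 of 9 genes were tested, 2 rose and 2 fell. The alpha subunit genes went apart: Gnai3 was higher, with 304 and 325 CPM in the P2-mouse pair against 133 and 147 CPM (1.06, SE 0.10, edgeR adjusted p = 0.000246), and so was Gnai1 (0.72, SE 0.13). Gnai2 (-0.60, SE 0.11) and Gnaz (-0.56, SE 0.15) were lower. Gnao1, the most abundant of the list at a mean of 609 CPM, was not called (-0.09, SE 0.09, adjusted p = 0.471). Gnai3 was called with the GC and length offsets too (0.62), whereas Gnai1 (0.36), Gnai2 (-0.08) and Gnaz (-0.16) were not, and on scaling to the neuron markers Gnai2 and Gnaz lost the call and Gnao1 was called higher (0.31, edgeR adjusted p = 0.0468, the lowest of its alternatives, against a highest of 0.893).

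The Gq list, downstream of Htr2a and Htr2b, had 4 of 12 genes higher and 3 lower. Itpr3, an intracellular calcium channel opened by inositol trisphosphate, had 15.6 CPM in female A and 17.9 CPM in male A, against 2.65 CPM in male B and 2.09 CPM in male C (2.71, SE 0.24, edgeR adjusted p = 0.000220). Plcb1, a phospholipase C (0.86, SE 0.18), and Prkca, a protein kinase C (0.63, SE 0.09), were higher as well. Plcb2, outside the rule for naming genes by its low level, had 18 and 10 counts in the P2-mouse pair and 0 in both embryo libraries. With a floor of 3 counts over the embryo pair in place of 0, it was at least 9.77-fold higher on counts scaled by library totals only. That ratio leaves out the counting error of the P2-mouse counts. The alpha subunit Gna11 (-0.58, SE 0.09), the phospholipase Plcb3 (-0.49, SE 0.11) and the alpha subunit Gna14 (-0.41, SE 0.09) were lower, while Gnaq, at a mean of 1239 CPM, was not called (0.02, SE 0.12, adjusted p = 0.908). Itpr3 kept the call under every alternative run. With the GC and length offsets the values were 0.29 for Plcb1, 0.15 for Prkca, -0.14 for Gna11 and -0.17 for Plcb3, none of them called. Plcb1, Plcb3 and Gna14 lost the call with sex as a term, and Gna11, Gna14 and Plcb3 on scaling to the neuron markers, where Gnaq was called higher (0.42).

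The Gs list, downstream of Htr4 and Htr7, had 15 of 17 genes tested, 4 higher and 3 lower. Prkacb, a catalytic subunit of protein kinase A, was higher, with 680 and 675 CPM in the P2-mouse pair against 475 and 492 CPM (0.37, SE 0.08, edgeR adjusted p = 0.00701). Its counterpart Prkaca was lower, with 61.7 and 49.9 CPM against 93.8 and 101 CPM (-0.92, SE 0.13, adjusted p = 0.00116). The phosphodiesterase Pde4b (0.53, SE 0.13) and the cyclic AMP sensor Rapgef4 (0.28, SE 0.09) were higher, and the adenylyl cyclases Adcy5 (-0.79, SE 0.14) and Adcy2 (-0.76, SE 0.22) lower. The alpha subunit Gnal, at a mean of 244 CPM, was near the threshold and not called (0.23, SE 0.08, adjusted p = 0.0608). It was called higher with limma-voom (adjusted p = 0.0493), with a mean of at least 5 CPM required (adjusted p = 0.0356) and on scaling to the neuron markers (0.63, adjusted p = 0.00134), and its adjusted p reached 0.789 among the alternatives. Gnas, outside the naming rule by its level, was called higher at 3.24 and 4.54 CPM against 1.59 and 1.73 CPM. Of its exon bases, 22.0% are overlapped by the opposite-strand genes Nespas and Gm20721. Reads from that stretch cannot be assigned with certainty. Nespas had at most 0.499 CPM and Gm20721 at most 0.115 CPM in any library. Why Gnas was counted at so low a level was not tested, and the printed level may not be its full level. Its call was lost with sex as a term. Prkacb (0.08 with the offsets), Pde4b (0.28), Rapgef4 (0.05) and Adcy2 (-0.55) lost the call both with sex as a term and with the offsets. Rapgef4 lost it under 10 of the 14 alternatives, and Adcy2 and Adcy5 lost it on scaling to the neuron markers. Prkaca kept it with the offsets at -0.42.

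Of the 11 regulators and partners of the receptors, all tested, 2 were higher and 4 lower. Mpdz, a scaffold protein with PDZ domains that binds Htr2 receptors (0.94, SE 0.22), and Snx27, which recycles membrane receptors (0.59, SE 0.11), were higher. Lower were the scaffold gene Dlg4 (-0.90, SE 0.18), the receptor kinase genes Grk2 (-0.84, SE 0.12) and Grk6 (-0.61, SE 0.20), and S100a10 (-0.47, SE 0.08). S100a10 encodes p11, a partner of the Htr1b and Htr4 receptors, and was the most abundant of the list, with 704 and 693 CPM in the P2-mouse pair against 935 and 851 CPM. Arrb1, the arrestin gene next in level, was not called (-0.19, SE 0.12, edgeR adjusted p = 0.234). Mpdz and Grk6 lost the call with sex as a term and with the offsets. S100a10 (-0.15) and Snx27 (0.28) lost it with the offsets, Grk2 kept it there at -0.41, and S100a10, Grk6 and Dlg4 lost it on scaling to the neuron markers. Without male B, Arrb1 was called lower (-0.34).

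**Figure D5:**
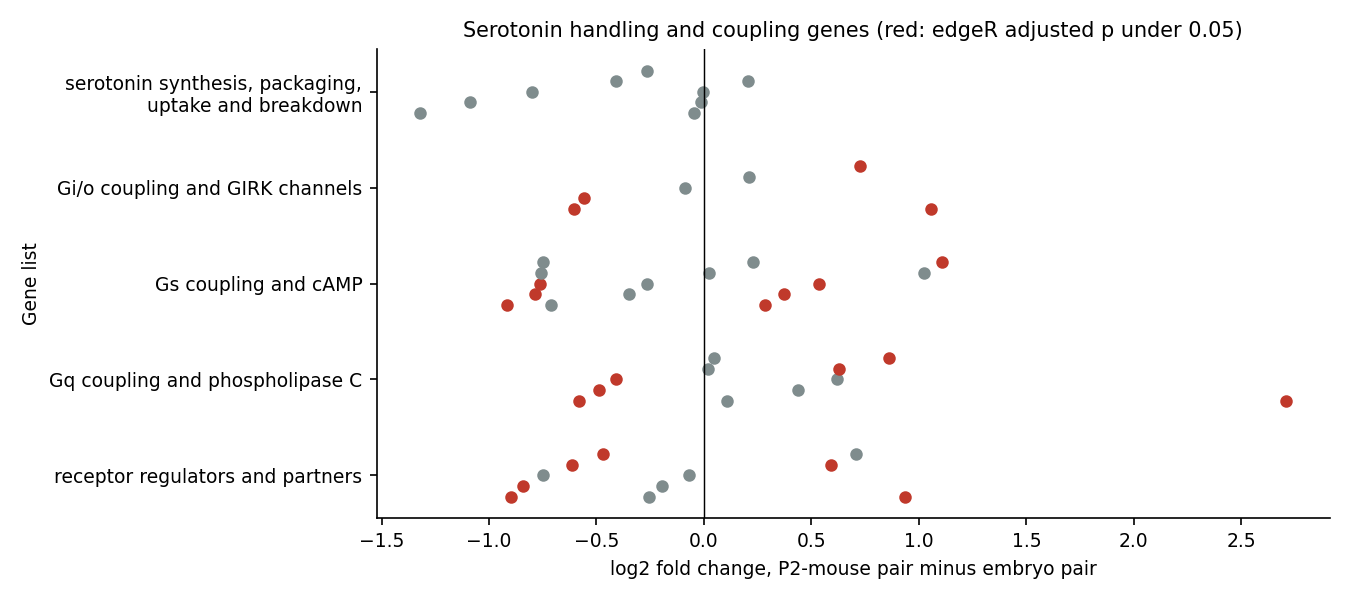
Log2 fold change, P2-mouse pair minus embryo pair, of each tested gene in the 5 lists of serotonin handling and receptor signalling, with called genes in red and Plcb2, at 0 counts in the embryo pair, left out. Called genes lie on both sides of 0 in each of the 4 signalling lists, from Itpr3 at 2.71 to Prkaca at -0.92, and none is called in the list of serotonin handling.

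Likeness was measured as the root mean square difference of log2 CPM, centred on each gene's mean over the 4 libraries, against 132 genes of the lists with at least 20 mean counts. The closest pair was Htr5a and Htr7, each the other's nearest gene (0.0757), both highest in male B. Htr1d lay nearest to the neuronal tubulin gene Tubb3 (0.143) and the neuropeptide gene Calcb (0.155), and Htr5b nearest to Calcb (0.316) and Htr1d (0.344). Htr1f lay nearest to the itch neuron marker Mrgpra3 (0.122), then Gal (0.237), and Htr1b nearest to Pde4b (0.0987) and Slc17a6 (0.120). Htr2a had Apoe (0.220) and Htr4 (0.337) nearest, Htr4 had Nts (0.185) and Adcy7 (0.203), and Htr1a had Slc18a2 (0.170) and Slc1a3 (0.175). With 4 libraries in 2 pairs, many genes share a profile, and Htr2b was too low to be included.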

How the data were processed

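The authors deposited, for each library, a table of gene counts, CPM and RPKM. Per the submitters' processing notes, the deposited counts were made with featureCounts 1.4.5 (Subread) on GRCm38.p2. The aligner, the strand setting and how multiply matched reads were counted were not given in the sources used here. Recomputed from the counts, the deposited CPM are counts scaled by the library's gene total, and the deposited RPKM are CPM per kilobase of the exon length (the other value in the files). Symbols came from GENCODE M21 for 40254 of 41388 genes, and upstream sequences from RefSeq (GRCm38.p6). Windows of 8 of the 10 genes were searched (not Htr4 and Htr5b). Htr1d has 2 starts in that table, of which the one at the files' gene start was used.

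Counts were tested with edgeR 4.0.16 in R 4.3.3 (quasi-likelihood F test, TMM, filterByExpr with a minimum count of 10 and a minimum total of 15, Benjamini-Hochberg over all genes tested, 0.05). SE is the log2 fold change over the root of F. Each animal gave 1 library, and with 2 residual degrees of freedom the spread is borrowed across genes. Fold changes are on TMM-scaled counts, whereas printed CPM are unscaled. Intervals are exact Poisson 95% ones, without molecular identifiers, and so cover counting error only. Alternatives were other size factors, other filters, DESeq2 1.42.0, limma-voom (limma 3.58.1), robust empirical Bayes, sex or pool description as a term (which leaves 1 residual degree of freedom), offsets for GC content and length (mgcv 1.9.3), scaling to neuron markers, and each library left out. The tests were checked on simulated counts, with a spread between libraries (biological coefficient of variation) near the 0.16 of the fit between the pairs. The fit between the sexes had 0.39, so the check does not cover that spread. Known changes were put into few genes, all with higher mean counts than Htr1f and Htr2b. The check thus covers neither receptor genes of low count nor changes as widespread as those between the pairs. Its outcome is not reported here.

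The members and lists were chosen with earlier results of these data known. All 10 receptor genes and the 4 other serotonin receptor genes are named. From each pathway list, the rule named up to 3 called genes per direction with a mean of at least 5 CPM, by absolute log2 fold change, and the 2 most abundant.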

Additional observations from a re-analysis of the deposited data

How the results depend on the processing

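In the comparison of the pairs, 3 receptor genes were lower and 0 higher. The lower count was 1 with a mean of at least 5 CPM required (4 receptor genes tested) and 1 with sex as a term plus GC and length offsets, and 2 to 5 with each library left out: 2 without female A or male A, 4 without male B and 5 without male C. The higher count was 1 on scaling to the pan-sensory neuron markers and 0 to 1 with a library left out (Htr1b, without male B). Of the pathway genes, 12 higher became 5 with sex as a term, 5 with GC and length offsets, 2 with both, 21 on scaling to neuron markers and 5 to 12 with a library left out. The 12 lower became 7 with GC and length offsets, 1 with sex as a term as well, 2 on scaling to neuron markers and 6 to 15 with a library left out. Over all genes, 3472 higher and 3112 lower became 5614 and 1265 on scaling to neuron markers, 2064 and 1615 with sex as a term, 2413 and 2507 with the offsets, and 684 and 708 with both. Between the sexes, the receptor count of 0 lower was 0 to 2 with a male left out. Reversed values of uncalled genes between the pairs were those of Htr1a (0.0742 with sex as a term, 0.0093 with limma-voom, 0.0535 with sex and offsets, 0.36 on neuron scaling, and -0.50 to 0.47 with a library left out), Htr1b (-0.0563 with sex and offsets), Htr2a (0.0203 with limma-voom, 0.26 on neuron scaling, and with a library left out -0.67 to 0.72, the highest without male C) and Htr2b (with a library left out -1.65 to 0.43, the highest without male B). Between the sexes they were those of Htr1a (-0.44 to 0.0281 with a male left out, the highest without male B), Htr2a (-0.45 to 0.23, the highest without male C), Htr2b (-0.12 to 1.21, below 0 without male A or male C), and, with a term for the pool description, Htr4 (0.0458, or 0.0662 with offsets as well) and Htr5b (0.0065). The cause of these changes was not tested. Of the log2 fold changes of single receptor genes under the alternatives, 111 between the pairs and 105 between the sexes kept their direction and call. Between the pairs 5 lost the call and 7 gained it, and between the sexes 2 gained it. No paired analysis was possible because the groups share fewer than 2 replicate letters.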
